A study of Mus musculus with 9 samples.

Results

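The Nkx2 and Nkx3 homeobox genes were examined in the open chromatin map of the early mouse heart region. The set comprised 8 genes, namely Nkx2-1, Nkx2-2, Nkx2-3, Nkx2-4, Nkx2-5, Nkx2-6, Nkx2-9 and Nkx3-2, and their regions were the entries of the control list that carry one of these symbols. Of the 8 genes, 2 had an assigned accessible region, Nkx2-9 and Nkx3-2, with 1 region each, out of 17164 distinct regions and 11541 genes with a region. The other 6 genes, Nkx2-5 among them, had none, and for all of these except Nkx2-6 the nearest region on the chromosome is given below.

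The map came from ATAC-Seq, a method that tags open DNA with a transposase, of pharyngeal mesoderm and heart dissected at embryonic day 8.75 (6 somites). The study made 9 libraries, 3 from wild-type control embryos, 3 from Isl1-/- embryos, which lack the LIM-homeodomain factor Isl1, and 3 from Isl1Cre+/-/ Brg1fl/fl embryos, in which Cre expressed from the Isl1 locus recombines floxed Brg1, the ATPase of the SWI/SNF remodeling complex, in Isl1-expressing cells and their descendants. The values used here were the 1 list of regions common to the 3 control libraries, in mm9 coordinates, with neither peak heights nor separate values for the libraries. The mutant groups were not analyzed here, no genotype was compared, no value has a replicate error, and the sequencing depth is unknown. A gene without a region in this list was not shown to be closed, since a region had to be called in each of the 3 libraries. Intervals are 95% Wilson intervals and cover counting error over genes, not variation between embryos. Among genes that mark heart and pharyngeal progenitors, 4 of 6 had a region (66.7%, interval 30.0 to 90.3%), with 9 regions for Isl1, 4 for Tbx20, 1 for Gata4 and 1 for Hand2, and none for Gata6 and Tbx1. The interval contains the share over all coding genes, 49.3%, so this count does not set the tissue apart.

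Nkx2 and Nkx3 proteins are transcription factors that bind DNA through a homeodomain and are descended, with the Drosophila genes tinman, bagpipe and vnd, from an ancient family that patterns heart, gut mesoderm and ventral nerve cord. Nkx2-5 is expressed in cardiac progenitors and myocardium and is required for heart looping and chamber formation, and several enhancers upstream of it are known from transgenic mice. Nkx2-6 and Nkx2-3 are expressed in the pharynx, Nkx2-1 marks the thyroid, lung and ventral forebrain, Nkx2-2 and Nkx2-9 mark the ventral neural tube, and Nkx3-2 (Bapx1) acts in sclerotome, gut mesenchyme and the jaw joint.

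The homeodomain was compared between members to order them by relatedness. Translated coding sequences gave a homeodomain of 60 residues for each of the 8 genes and 28 pairwise comparisons, with a median identity of 78.3%. Nkx2-1 and Nkx2-4 were identical over 60 residues, Nkx2-3 and Nkx2-5 shared 93.3%, and Nkx2-2 and Nkx2-9 shared 88.3%. Nkx3-2 stood furthest from the others, at 61.7 to 71.7% identity. By the deposited symbols, neither gene of the first and of the second pair had an assigned region, and in the third Nkx2-9 had one and Nkx2-2 had none.

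The share of members with an assigned region was 25% (2 of 8, interval 7.15 to 59.1%), beside 49.3% of 21031 coding genes. The interval contains the background share, so with 8 genes the lower share could not be told apart from it. Neither gene had more than 1 region, which was also the case for 73.2% of all genes with a region. A region had its center within 1 kb of an annotated start in 2 of 8 members when all transcripts of a gene were used, Nkx3-2 and Nkx2-2, beside 44.3% of 22367 coding genes. With starts of protein-coding transcripts only, Nkx3-2 alone had one, beside 43.8%. The extra gene is Nkx2-2, whose region carries the symbol of another transcript and is described below.

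Nkx3-2, the sclerotome gene, had a region over its promoter. This region, chr5:42154310-42156415, was 2106 bp wide, above the median of 1294 bp for the 9083 regions within 1 kb of a start and wider than 92.2% of them. Its center lay 97 bp from the nearest annotated start. Nkx3-2 is on the minus strand (chromosome 5, 42152404 to 42155735) and has 2 annotated starts, and the region contained both. It reached 680 bp upstream of the outer start and 1425 bp downstream of it, and so took in the whole first exon and the beginning of the intron. The region had a GC content of 59.5% and 6.17 CpG dinucleotides per 100 bp, close to the medians of its class, 58.1% and 5.93. The 300 bp just upstream of the outer start, chr5:42155736-42156035, overlap no annotated exon and are printed below on the gene's strand with CpG in capitals, because they are the upstream sequence of the only coding start in the family that was covered by a region. This stretch has 8 CpG.
Nkx3-2 upstream: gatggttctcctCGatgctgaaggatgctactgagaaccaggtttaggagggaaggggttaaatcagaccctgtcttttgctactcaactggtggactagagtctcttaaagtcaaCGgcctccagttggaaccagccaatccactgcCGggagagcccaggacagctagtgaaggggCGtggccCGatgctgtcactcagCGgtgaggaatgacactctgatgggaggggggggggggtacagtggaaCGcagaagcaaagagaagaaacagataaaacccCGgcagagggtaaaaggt

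At Nkx2-5, the cardiac member, the list held no region at the start or anywhere near it. Nkx2-5 (chromosome 17, 26975609 to 26978510, minus strand) has 1 annotated start. The nearest region center lay 75477 bp upstream, at the start of the kinesin gene Kifc5b, and the next lay 98138 bp upstream at Cuta. On the downstream side the nearest was 125513 bp away at Crebrf. Between the flanking regions lay 199628 bp without a region, the longest such stretch around any of the 8 genes and longer than 79.7% of all gaps between neighboring regions. A gap picked because it contains a gene start is more often a long one, so this percentile is a description only. Of the 5 other coding genes with a start within 100 kb of the Nkx2-5 start, Kifc5b and Cuta had a region at a start within that window, and Bnip1, Phf1 and A930001N09Rik did not. The 300 bp upstream of the Nkx2-5 start, chr17:26978511-26978810, are shown on the gene's strand with CpG in capitals for comparison with Nkx3-2. They also have 8 CpG, with a GC content of 48.3% compared with 54.3% for the Nkx3-2 stretch.
Nkx2-5 upstream: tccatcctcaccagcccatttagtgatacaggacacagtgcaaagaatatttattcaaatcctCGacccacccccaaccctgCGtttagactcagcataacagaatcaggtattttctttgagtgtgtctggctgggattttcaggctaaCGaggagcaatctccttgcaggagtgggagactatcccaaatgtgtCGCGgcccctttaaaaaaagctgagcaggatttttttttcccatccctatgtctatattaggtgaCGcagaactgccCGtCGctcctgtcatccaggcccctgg

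Nkx2-2, which specifies ventral interneurons and pancreatic endocrine cells, had no region under its own symbol, but a region covered 2 of its 4 annotated starts. The region, chr2:147019151-147020080, was 930 bp wide and was deposited with the symbol 6430503K07Rik, a noncoding RNA, at a distance of 6455 bp from that gene's start. Its center lay 363 bp from the outermost starts of Nkx2-2 (chromosome 2, 147003282 to 147019979, minus strand), which belong to noncoding transcripts of the gene, and 7477 bp upstream of the outer coding start. No other region lay within 100 kb of any Nkx2-2 start. The region held 6.24 CpG per 100 bp and 61.7% GC, compared with medians of 2.46 and 51.7% for the 1341 regions between 1 and 10 kb from the assigned start, the class it falls in by its deposited distance, and with 5.93 and 58.1% for regions within 1 kb. An intronic stretch of this region, chr2:147019375-147019674, is printed on the strand of Nkx2-2 with CpG in capitals, because the region is the one that the choice of transcripts moves between genes. It has 11 CpG.
Nkx2-2 upstream region: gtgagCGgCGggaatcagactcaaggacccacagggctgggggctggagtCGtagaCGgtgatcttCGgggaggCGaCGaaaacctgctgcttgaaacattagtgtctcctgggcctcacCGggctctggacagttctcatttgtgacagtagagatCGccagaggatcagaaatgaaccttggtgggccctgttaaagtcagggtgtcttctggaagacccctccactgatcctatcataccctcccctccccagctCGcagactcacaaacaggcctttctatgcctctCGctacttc

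**Figure D1:**
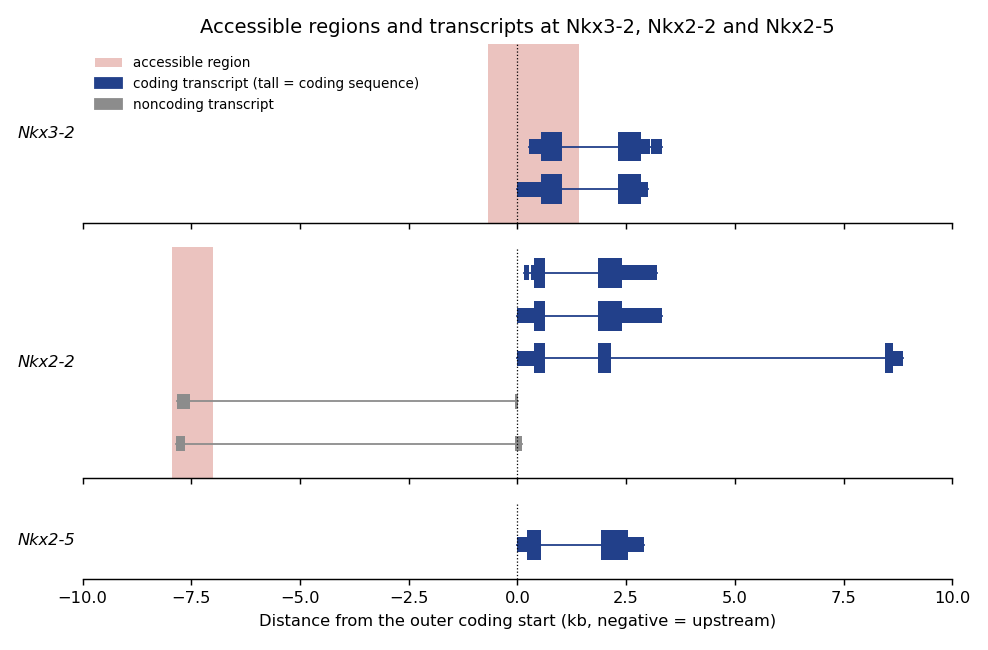
Transcripts of Nkx3-2, Nkx2-2 and Nkx2-5 against the distance from the outer coding start in kb, with exons as boxes, coding sequence as taller boxes and accessible regions as shaded bands. The band covers both starts of Nkx3-2, lies over the first exons of the 2 noncoding transcripts of Nkx2-2, and is missing from the Nkx2-5 panel.

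Nkx2-9, a ventral neural tube gene, had a distal region. The region, chr12:57737714-57738788, was 1075 bp wide, centered 23980 bp upstream of the Nkx2-9 start, and intergenic. Among the 4190 regions at 10 to 100 kb it was wider than 67.9%, with a class median of 949.5 bp. It contained 2.14 CpG per 100 bp and 43.3% GC, compared with class medians of 1.45 and 48.2%. No region lay at the start of Nkx2-9 itself (chromosome 12, 57712376 to 57714271, minus strand). The central 300 bp of the region, chr12:57738102-57738401, are printed on the strand of the gene with CpG in capitals, because this is the only distal region assigned to any of the 8 genes. With 4 CpG and a GC content of 39.0% it is the CpG-poorest of the 4 printed stretches.
Nkx2-9 distal region: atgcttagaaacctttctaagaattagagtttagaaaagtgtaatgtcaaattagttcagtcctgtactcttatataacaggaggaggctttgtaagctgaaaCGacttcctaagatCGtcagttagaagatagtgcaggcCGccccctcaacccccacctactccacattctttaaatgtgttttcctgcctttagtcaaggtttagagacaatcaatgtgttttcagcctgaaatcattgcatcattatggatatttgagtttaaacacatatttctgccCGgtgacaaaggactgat

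Both neural and foregut pairs of the family are clusters in which a Pax gene lies beside 2 Nkx2 genes. Nkx2-1 and Nkx2-9 start 76376 bp apart on chromosome 12, and Nkx2-2 and Nkx2-4 start 100957 bp apart on chromosome 2. In the first cluster, Nkx2-1 (57632922 to 57637895, minus strand) had no region at its start. The nearest lay 77434 bp downstream of it, a 1496 bp intergenic region assigned to the noncoding gene E030019B13Rik. On the upstream side, given as negative distances, the Nkx2-9 region was the nearest, at -100356 bp. The starts of Nkx2-1 and Nkx2-9 thus lay together in 1 stretch of 176504 bp without a region. Past the Nkx2-9 region, the start of Pax9, a pharyngeal pouch and sclerotome gene, was covered by a region of 1293 bp, 82412 bp upstream of Nkx2-9.

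In the second cluster, Nkx2-4 (chromosome 2, 146909052 to 146911181, minus strand), which is expressed in the hypothalamus and thyroid, had no region within 50 kb of its start. The nearest center lay 72185 bp downstream, in a 1667 bp region at a start of the exonuclease gene Xrn2, and the nearest upstream was the Nkx2-2 region at -108434 bp. The coding starts of Nkx2-2 and Nkx2-4 lay in 1 stretch of 179321 bp without a region. Beyond the Nkx2-2 region, the next were assigned to AI646519 and to Pax1, a sclerotome gene, at -176039 and -187361 bp from the Nkx2-2 coding start.

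The pharyngeal genes Nkx2-3 and Nkx2-6 also lacked a region. Nkx2-3 (chromosome 19, 43686815 to 43690381, plus strand) lay between the open starts of Got1, at -87733 bp, and Entpd7, 77504 bp downstream. These flank a stretch of 164021 bp without a region. Nkx2-6 (chromosome 14, 69789633 to 69793596, plus strand) had no region at its start, and on the upstream side the nearest region was at -118664 bp and assigned to Stc1.

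**Figure D2:**
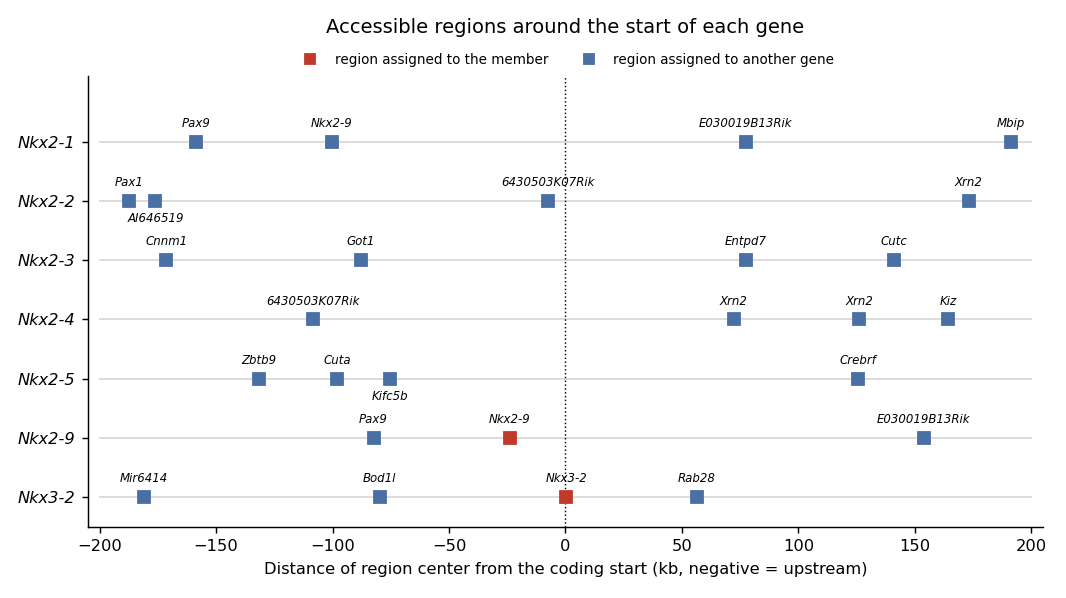
Centers of accessible regions within 200 kb of the members other than Nkx2-6, plotted as squares by distance in kb from the outer coding start with negative values upstream, and labeled with the assigned gene. Red squares are regions assigned to the gene of that row. These are the Nkx2-9 region, centered 23980 bp upstream, and the Nkx3-2 region at the start, and around Nkx2-5 the closest square is 75477 bp away.

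Across the 8 genes, the distance from any annotated start to the nearest region center ranged from 97 bp to 77504 bp with a median of 48082 bp. Over all coding genes the median was 7178 bp, and over coding genes without a region at a start it was 47042 bp. Nkx2-1, Nkx2-3, Nkx2-4 and Nkx2-5 had no region center within 50 kb, 4 of 8 members, beside 26.9% of all coding genes. Their distances lay close together, between 72185 and 77504 bp, and between 20 and 21.2% of coding genes were as far or farther from a region. Nkx2-9 was intermediate, at 23980 bp. Apart from Nkx2-6, the 6 coding starts without a region shared 4 stretches without one, of 164021 to 199628 bp, compared with a median gap of 72839 bp between neighboring regions of the list. A gap that contains a given point is more often a long gap, so this comparison is a description only.

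**Figure D3:**
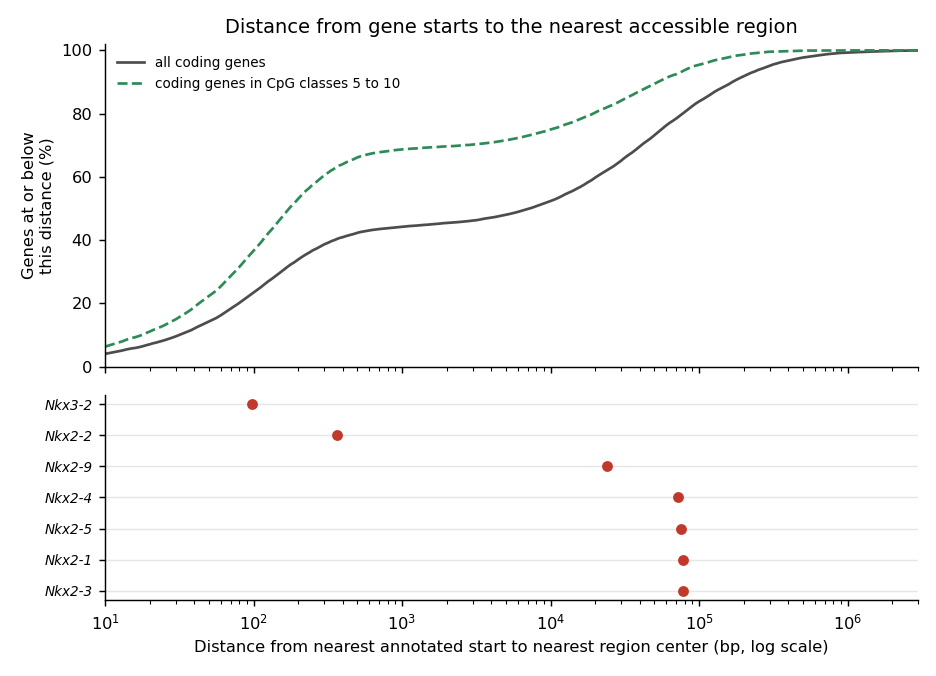
Upper panel, the share of coding genes whose nearest region center is at or below a given distance in bp from an annotated start, on a log axis, for all coding genes and for those in CpG classes 5 to 10. Lower panel, the same distance for each member other than Nkx2-6, of which Nkx3-2 and Nkx2-2 lie below 1 kb and 4 lie between 72185 and 77504 bp.

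Most regions around the family belonged to its neighbors. The windows of 100 kb on either side of the 8 genes held 13 distinct regions, of which 2 were assigned to a member and 10 lay within 1 kb of the start they were assigned to. A median of 1.5 regions was found within 100 kb of a member, compared with a median of 2 (quartiles 1 and 4) over all coding genes. Of the 14 other coding genes with a start in these windows, 9 (64.3%, interval 38.8 to 83.7%) had a region at a start there. The interval contains the 44.3% of all coding genes with a region at a start and overlaps that of the members, and no difference was tested.

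Promoter sequence was compared next, because the share of coding genes with a region at a start rose with CpG frequency, from 0.492% in the lowest class to 76.7% in the highest. The CpG frequency within 500 bp of a start, taken as the highest over a gene's starts, was 3.3 per 100 bp for Nkx2-6, 4.4 for Nkx2-9, 4.7 for Nkx2-3, 4.8 for Nkx2-1 and for Nkx2-5, 6.49 for Nkx2-2, 7.99 for Nkx3-2 and 9.69 for Nkx2-4. All coding genes were divided by this frequency into 10 classes of equal size. The 8 genes fell in classes 5 to 9, and none in the highest or the 4 lowest. Class 6 holds Nkx2-1, Nkx2-3 and Nkx2-5. In this class 65.9% of 2237 genes (interval 63.9 to 67.9%) had a region at a start by the same criterion, and none of the 3 members did. In class 5, with Nkx2-6 and Nkx2-9, the share was 53.9%, and neither member had one. Nkx2-4 lacked one in class 9, where 73.3% of genes had one, whereas Nkx2-2 and Nkx3-2 had one in classes 7 and 8, where the shares were 70.8% and 71.5%. Averaged over the 8 genes, the share in their own class was 65.1%, compared with the 2 of 8 members found. The interval for 2 of 8, 7.15 to 59.1%, contains the 44.3% over all coding genes but not 65.1%. With starts of protein-coding transcripts only, 1 member had a region at a start. The members were chosen with earlier results known, and the difference was not tested. A distance above 50 kb was seen for 10.5% of genes in class 6, with Nkx2-1, Nkx2-3 and Nkx2-5, and for 9.52% in class 9, with Nkx2-4. In the classes of the other members it was seen for 14.9% (class 5), 8.9% (class 7) and 9.57% (class 8). Over classes 5 to 10 together the share was 10.6%.

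**Figure D4:**
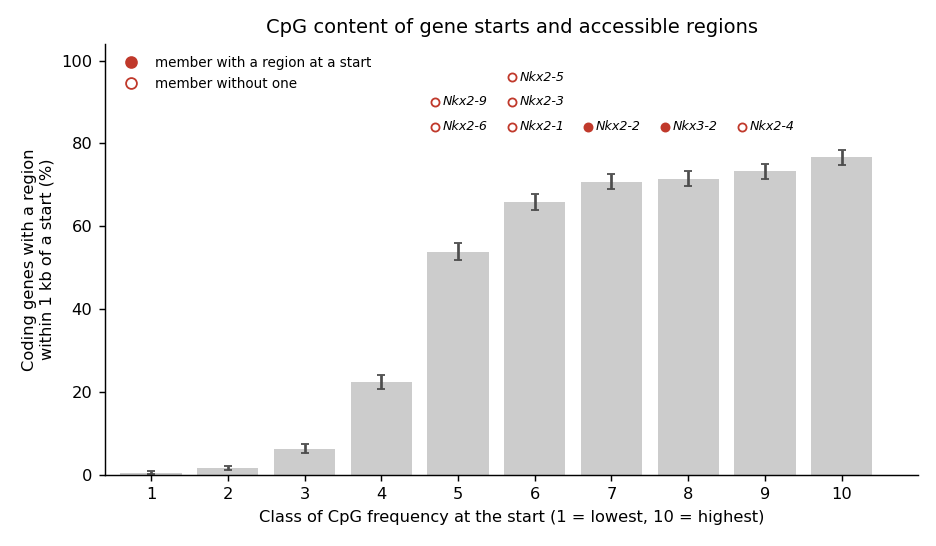
Bars give the percentage of coding genes with a region center within 1 kb of an annotated start in 10 classes of CpG frequency at the start, with 95% Wilson intervals. Circles above the bars place the 8 genes by class, filled for Nkx2-2 and Nkx3-2, which have a region at a start, and open for the other 6.

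Short binding motifs were searched in the 2 regions assigned to the family and in the Nkx2-2 region, on both strands. The 7 motifs were TNAAGTG (the NK2 element, to which Nkx2 proteins bind), CTAATG (an Isl1-like homeodomain site), TAATTA (a general homeodomain site), AGATAA (zinc finger factors of the Gata family), AGGTGTGA (T-box factors), TGTTTAC (forkhead factors) and CATTCC (TEAD factors). TAATTA reads the same on both strands, and none of the 7 contains another. In the central 300 bp, the Nkx3-2 region had 1 match, to AGATAA, which 3.24% of regions within 1 kb of a start contain. The center of the Nkx2-9 region had none of the 7. The center of the Nkx2-2 region had 2 matches to CTAATG, a motif found in 2.95% of region centers within 1 kb of a start and in 11.2% of those farther away. One of these begins 43 bp from the region's center and is the cattag of the printed Nkx2-2 stretch. Over their full lengths, the Nkx2-9, Nkx3-2 and Nkx2-2 regions each contained CTAATG, which 26.9% of all regions do, and none contained TNAAGTG, which 41.6% of all regions do. AGATAA, which 35.8% of all regions contain over their full length, had 2 matches in the Nkx3-2 region, 1 of them the agataa near the 3′ end of its printed stretch, and 1 in the Nkx2-2 region. TAATTA, in 19.5% of all regions, had 1 match in the Nkx2-9 region and 1 in the Nkx3-2 region. CATTCC, in 46.8% of all regions, had 1 match in the Nkx3-2 region, and AGGTGTGA and TGTTTAC had none in the 3 regions. A match describes letters and not binding.

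Genes that act with the family were counted in 4 lists. Of 18 partners and targets of Nkx2-5 in the heart, 10 had an assigned region (55.6%, interval 33.7 to 75.4%). Isl1 had 9 regions, Mef2c 5 and Tbx20 4, whereas 8 genes had none, among them Tbx5, a partner of Nkx2-5, and its target Nppa. Of 11 genes of the foregut, thyroid and lung, where Nkx2-1 acts, 4 had a region (36.4%, interval 15.2 to 64.6%), none of them within 1 kb of a start. Foxa2 had 4, Pax8 3 and Bmp4 1. Of 12 genes of the ventral neural tube and pancreas, where Nkx2-2 acts, 9 had a region (75%, interval 46.8 to 91.1%), with 9 for the hedgehog effector Gli3, 4 for Pax6 and 3 for Irx3. Of 9 genes of the sclerotome and skeleton, where Nkx3-2 acts, 6 had a region (66.7%, interval 35.4 to 87.9%), with 4 for Foxc1, 2 for Pax1 and 2 for Pax9. All 4 intervals contain the background of 49.3%. In the other 3 lists, a region within 1 kb of the assigned start was found for 8 heart genes, 6 neural tube and pancreas genes and 5 sclerotome and skeleton genes. The share over all genes by this measure is not given, and no difference between lists was tested.

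T-box genes, a further family of developmental transcription factors, were set beside the Nkx2 and Nkx3 genes after the values of these were known. Of 13 Tbx genes, 5 had a region (38.5%, interval 17.7 to 64.5%), and each of the 5 had at least 1 whose deposited distance was at most 1 kb. For this last count, too, the share over all genes with a region is not given. The interval overlaps that of the 8 members, and the difference was not tested.

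**Figure D5:**
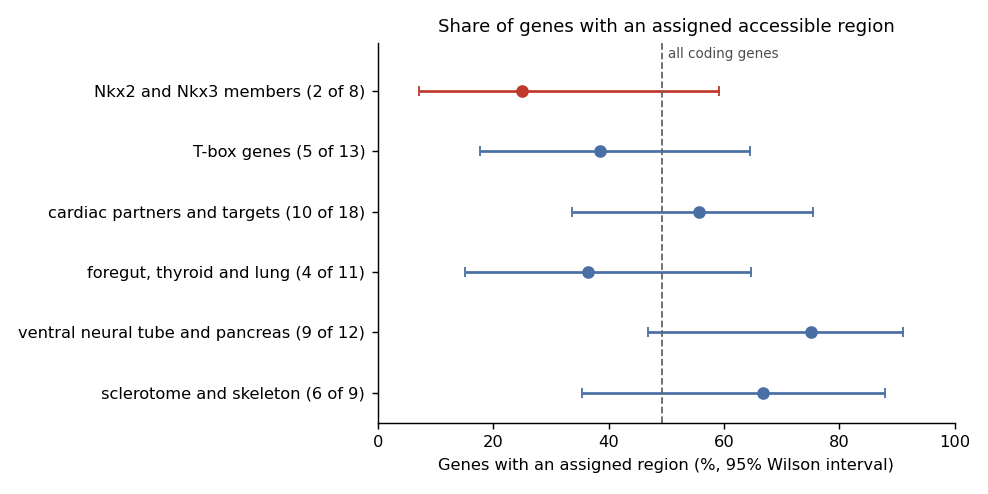
Percentage of genes with an assigned accessible region in each list, with 95% Wilson intervals, and the share over all coding genes as a dashed line. The 8 Nkx2 and Nkx3 genes are in red at 25%, the other lists run from 36.4 to 75%, and every interval overlaps that of the 8 genes.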

How the data were processed

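ATAC-Seq libraries were made from pharyngeal mesoderm and hearts of embryos at embryonic day 8.75, and samples were grouped by genotype as labeled. Per the methods of the study and the submitters' processing notes, the authors mapped reads to mm9 with bowtie2, filtered them with samtools, removed duplicates with Picard 1.136, called peaks with MACS14 (fragment model off, preset shift), dropped blacklisted peaks, and intersected replicates with bedtools 2.15 (minimum overlap 1 bp). A correction for the Tn5 offset is not given in the sources used here, so the edges of regions are approximate. The deposited columns are start, end and distance to the assigned start in bp, with no other value, and how genes were assigned is stated only for the ChIP-Seq peaks. No column of values was left unmapped (0 columns).

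Rows repeating a position were counted once (17432 rows, 17164 regions), and widths were taken as end minus start plus 1. Sequence and transcripts came from NCBIM37, the build of mm9, and its GENCODE annotation, in which all 8 genes were found. No region ended beyond its chromosome, and 92.9% of the deposited distances of 14162 regions were within 100 bp of that to a GENCODE start of the same coding gene. Coding RefSeq genes came from the gene table of GRCm38.p6, used for names only. The homeodomain was located by its WFQN stretch, with R or H at the next residue, since R alone found it in fewer genes. No test was run, because the list has no values per sample. Genes named were the 8 members, the genes assigned to regions around them, and up to 3 genes per list, and the neighbors of Nkx2-5 without a region, the flanking genes beyond 100 kb, Tbx5, Nppa and the Tbx genes were named after their values were seen. The region downstream of Nkx2-6 is not reported here. The members and lists were chosen with earlier results of these data known. Alternatives are given in the closing section. Distance and motif searches were tested on simulated data. Python 3.11.15, numpy 2.4.6, pandas 2.3.3, scipy 1.17.1 and samtools 1.23.1 were used.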

Additional observations from a re-analysis of the deposited data

How the results depend on the processing

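No paired analysis was possible because the 3 control libraries enter only as 1 common list without replicate numbers, and for the same reason no library could be left out. Unknown depth limits every gene without a region. Listing all rows as deposited and merging overlapping regions left 2 members with 2 regions, and a GENCODE background put the share of all coding genes at 43.2%. Keeping regions of at least the median width (1123 bp) left 1 member with an assigned region, 1 assigned region and 1 member with a region at a start, all Nkx3-2, and raised the median nearest distance to 79958 bp. This filter also removed regions of other genes. The matching values over all coding genes are not given, so the drop is not particular to the members. Assigning each region to the nearest coding GENCODE start gave 4 members and 4 regions, adding Nkx2-1 and Nkx2-2. The share of all coding genes with a region under this assignment is not given, so that count of members has no background. The deposited distance gave 1 member with a region at a start, as did starts of protein-coding transcripts only, an alternative chosen after seeing the data. Windows of 50 and 200 kb held 4 and 28 regions. Searching whole regions raised the number of motifs present, summed over the 2 assigned regions, from 1 to 6. Region edges, other CpG windows and 5 CpG classes moved their values by less than 1.5 times.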

Other observations

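When every region was given to the nearest start of a coding gene in GENCODE, whatever its deposited symbol, 4 members held 1 region each. Besides those of Nkx2-9 and Nkx3-2, these were the region at the noncoding starts of Nkx2-2, deposited under 6430503K07Rik, and the intergenic region chr12:57559714-57561209, deposited under the noncoding gene E030019B13Rik. The latter lay 77434 bp downstream of the Nkx2-1 start. It was 1496 bp wide, wider than 92.1% of regions at 10 to 100 kb, with 1.8 CpG per 100 bp and 45.3% GC. No coding gene started nearer to it than Nkx2-1, a gene of the thyroid, lung and ventral forebrain. Under this assignment Nkx2-5, Nkx2-3, Nkx2-4 and Nkx2-6 still had none. Without the share of all coding genes by the same assignment, the 4 members cannot be called many or few.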
